A study of Arabidopsis thaliana with 39 samples.

Results

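LUG sites without TPL were the ChIP-seq peaks of 3xFLAG-tagged LUG in WT that shared no base with any peak of 3xFLAG-tagged TPL in WT. The WT lists of both proteins alone chose them, and 169 of the 2721 LUG peaks of WT met the rule (6.21%, exact 95% interval 5.33% to 7.18%). The remaining 2552 LUG peaks shared at least 1 base with a TPL peak. ChIP-seq of LUG and of TPL was done in *morchex*, which carries mutations in 6 MORC genes (*morc1-2*, *morc2-1*, *morc4-1*, *morc5-1*, *morc6-3* and *morc7-1*), and in WT (Col-0), with 1 library for each protein and genotype. The tagged proteins were expressed from their native promoters and were precipitated with an anti-FLAG antibody from floral tissue. The primers listed for TPL match its relative *TPR1*, as given below, so the tagged protein called TPL here may be TPR1. The labels give the plants an age of 5 to 6 weeks, for ChIP-seq and RNA-seq alike. The paper's ChIP methods give a slightly lower age. RNA-seq was available for *lug* (3 libraries, in the Ler background, its allele not given in the sources used here) against Ler (3 libraries), and for *morchex* against WT before heat (T0, 3 libraries each) and after 0.5 h of heat (T30, 2 *morchex* and 3 WT libraries). Libraries taken later, in recovery (T48, 2 *morchex* and 3 WT), entered the same model and bring the total to 22. Because each peak list came from 1 library, shares of peaks are given with exact (Clopper-Pearson) 95% intervals, which cover the counting of peaks only. These intervals take peaks as independent, which neighbouring peaks of a repeat array are not. No test was run between genotypes or between sets of peaks. Control precipitations from plants without a tag were not used here, so the background of the antibody at these sites is not given.

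LEUNIG (LUG) and TOPLESS (TPL) belong to the plant corepressors related to Groucho of animals and Tup1 of yeast. They do not bind a DNA sequence by themselves and are brought to promoters by transcription factors or adaptor proteins, and LUG is known for keeping the floral organ identity gene *AGAMOUS* off in the outer whorls of the flower. MORC proteins are GHKL-type ATPases that act in gene silencing and chromatin compaction. The centromeres of Arabidopsis are built from long arrays of a short satellite repeat, the 5S rRNA genes lie in tandem arrays in the pericentromeres, and the 45S rRNA genes form the nucleolus organizers. All of these are present in many near-identical copies, most of which are missing from the TAIR10 reference.

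Most of the LUG sites without TPL lay in repeated sequence. A peak was counted as multicopy when over 10% of its words of 31 bases occurred more than once in the reference, and 116 of the 169 sites were multicopy (68.6%, 61.1% to 75.6%), against 36 of the 2552 LUG sites with TPL (1.41%, 0.990% to 1.95%). Of the sites without TPL, 84 lay in a repeat of 178 bases, which is the centromeric satellite of Arabidopsis, 22 in a repeat of 498 bases, which holds the 5S rRNA gene, 5 in 45S rDNA, and 3 in long runs of the trinucleotide GAA. A further 2 were in other multicopy sequence, and 53 were in single-copy sequence. None of the 2552 sites with TPL lay in these 4 repeat families. The families were taken from the sites without TPL themselves, so this is a description and not an independent contrast. The methods state that only uniquely mapped reads were kept, and the part of read mapping in the enrichment over repeats was not tested.

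The centromeric repeat is shown because 84 of the 169 LUG sites without TPL lie in it and because the same unit was found on all of the chromosomes. The first line is a unit inside a site on chromosome 4, and capitals in the other lines mark bases that differ from it. The copies on chromosomes 1, 2, 3 and 5 differed from this unit at 18, 12, 16 and 14 positions.
unit, chr4:3982481-3982658, + strand: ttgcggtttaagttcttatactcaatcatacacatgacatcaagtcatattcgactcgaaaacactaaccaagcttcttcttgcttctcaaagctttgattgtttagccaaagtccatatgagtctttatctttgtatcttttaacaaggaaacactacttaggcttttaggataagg
copy, chr1:15083664-15083841, - strand: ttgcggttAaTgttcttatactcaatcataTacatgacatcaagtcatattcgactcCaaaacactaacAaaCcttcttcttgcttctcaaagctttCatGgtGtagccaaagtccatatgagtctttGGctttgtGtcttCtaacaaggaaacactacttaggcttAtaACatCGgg
copy, chr2:3626169-3626346, - strand: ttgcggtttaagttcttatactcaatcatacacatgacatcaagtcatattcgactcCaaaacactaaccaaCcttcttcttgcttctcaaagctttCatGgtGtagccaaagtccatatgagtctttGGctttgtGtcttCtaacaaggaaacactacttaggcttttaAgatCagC
copy, chr3:13590540-13590717, - strand: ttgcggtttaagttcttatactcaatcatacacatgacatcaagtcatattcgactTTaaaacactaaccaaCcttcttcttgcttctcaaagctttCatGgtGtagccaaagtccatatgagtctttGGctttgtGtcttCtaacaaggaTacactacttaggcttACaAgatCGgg
copy, chr5:11706922-11707099, + strand: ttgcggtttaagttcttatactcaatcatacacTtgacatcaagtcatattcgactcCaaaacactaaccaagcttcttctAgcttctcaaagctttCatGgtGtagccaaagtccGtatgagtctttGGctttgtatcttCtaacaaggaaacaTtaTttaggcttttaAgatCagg

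The second set is the stretch that was most alike among the sites in the repeat of 498 bases. Its 120 bases are those of the 5S rRNA gene, a name that rests on the known sequence, since the annotation used here names no rRNA gene at these sites. Over the 22 sites the stretch had a mean identity of 97.0% to the unit shown first, against 92.1% over the whole unit. Capitals mark differences from the first line, which number 8 in the copy on chromosome 3 and 2 in the copy on chromosome 5.
stretch, chr4:3058657-3058776, + strand: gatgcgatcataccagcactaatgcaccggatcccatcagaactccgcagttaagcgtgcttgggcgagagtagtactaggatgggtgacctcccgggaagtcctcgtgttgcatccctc
copy, chr3:13853988-13854107, + strand: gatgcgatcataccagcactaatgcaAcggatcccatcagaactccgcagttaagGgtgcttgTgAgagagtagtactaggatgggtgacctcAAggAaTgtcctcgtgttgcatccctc
copy, chr5:11187810-11187929, + strand: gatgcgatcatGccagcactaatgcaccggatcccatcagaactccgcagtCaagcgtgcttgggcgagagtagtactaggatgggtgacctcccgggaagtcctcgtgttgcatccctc

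The third set is shown because it includes the LUG site without TPL that ranked highest. Each line gives the 30 bases before a run of the trinucleotide and the first 60 bases of the run in capitals. The run of GAA in the site on chromosome 4 held 201 repeats (603 bases), that on chromosome 1 held 117 repeats (353 bases) and that on chromosome 5 held 74 repeats (224 bases), the runs on chromosomes 1 and 5 being written on the strand that reads TTC.
chr4:3655346-3655435, + strand: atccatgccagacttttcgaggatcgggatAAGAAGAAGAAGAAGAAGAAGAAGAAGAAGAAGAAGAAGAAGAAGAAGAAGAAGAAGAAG
chr1:7024943-7025032, + strand: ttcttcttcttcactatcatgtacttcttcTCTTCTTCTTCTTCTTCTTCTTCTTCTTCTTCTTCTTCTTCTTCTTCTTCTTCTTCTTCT
chr5:12710406-12710495, + strand: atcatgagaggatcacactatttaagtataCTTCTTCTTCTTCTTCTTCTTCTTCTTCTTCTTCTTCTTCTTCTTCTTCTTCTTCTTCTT

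The fourth set gives 160 bases around the summits of 3 single-copy sites in promoters, all of them among the best-ranked of this class. Relative to the transcription start site, the summit lay at -166 bp for *SVL3*, at -159 bp for *EXO* and at -164 bp for *WRKY48*. Capitals in the line of *EXO* mark a heat shock element pair (GAANNTTC) and a LEAFY core (CCANTG or its reverse complement), and in the line of *WRKY48* an auxin response element (TGTCTC or its reverse complement) and a LEAFY core.
chr3:7162520-7162679, + strand, upstream of SVL3: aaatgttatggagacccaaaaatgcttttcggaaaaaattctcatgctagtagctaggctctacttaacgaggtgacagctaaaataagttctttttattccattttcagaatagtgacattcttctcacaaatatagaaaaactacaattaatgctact
chr4:5739980-5740139, + strand, upstream of EXO: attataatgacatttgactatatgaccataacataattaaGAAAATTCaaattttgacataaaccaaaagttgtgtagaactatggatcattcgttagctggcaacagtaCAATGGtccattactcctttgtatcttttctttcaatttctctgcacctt
chr5:20090404-20090563, + strand, upstream of WRKY48: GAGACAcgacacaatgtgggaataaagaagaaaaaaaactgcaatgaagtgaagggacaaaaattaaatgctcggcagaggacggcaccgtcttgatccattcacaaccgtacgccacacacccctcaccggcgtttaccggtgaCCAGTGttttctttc

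With all classes pooled, LUG sites without TPL had low fold enrichment for their significance. Fold enrichment is the ratio over the local background that MACS2 writes for each peak, and it had a median of 1.52 (range 1.27 to 4.53) in the sites without TPL and of 2.22 (1.52 to 6.04) in the sites with TPL. The median -log10 q was 6.55 in the sites without TPL and 6.40 in the sites with TPL. In the pooled sites, then, the lower fold did not go with a lower significance. The width had a median of 289 bp in sites without TPL, with a range of 193 to 12169 bp, against a median of 315.5 bp and a range of 193 to 1917 bp in sites with TPL. The repeat classes and the single-copy class differed in both values. In the centromeric repeat the median width was 370 bp and the median fold 1.42, in the 5S repeat 305.5 bp and 1.47, and in 45S rDNA 2575 bp and 1.41. In the single-copy class the median width was 253 bp and the median fold 1.98, with a median -log10 q of 4.22. In this class both the median fold and the median -log10 q were below those of the sites with TPL.

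**Figure D1:**
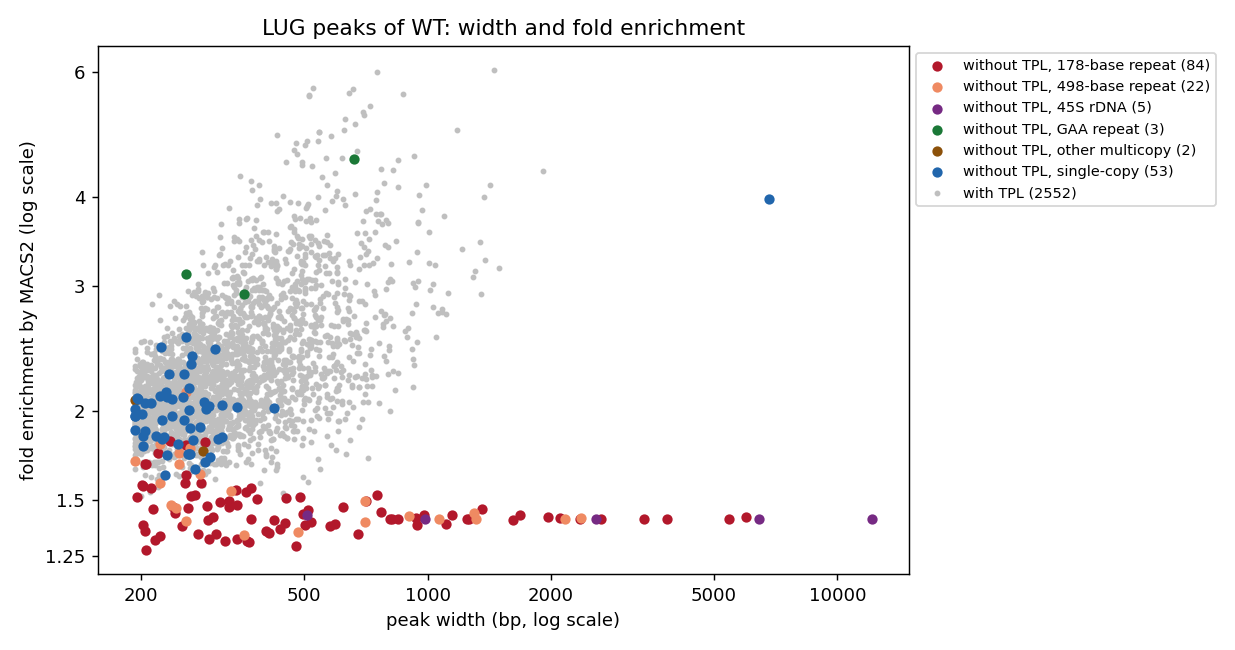
Width of each LUG peak of WT in bp (x axis, log scale) against its MACS2 fold enrichment (y axis, log scale), with the 169 sites without TPL coloured by sequence class and the 2552 sites with TPL in grey. The centromeric, 5S and 45S sites have median folds of 1.42, 1.47 and 1.41, and reach at most 1.81, 2.13 and 1.43. The widest of them is 12169 bp, at a fold of 1.41. The 3 GAA sites lie between 2.92 and 4.53, and the single-copy point at 6813 bp is the peak over the cloned *LUG* fragment.

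The 3 widest sites were a 45S rDNA peak of 12169 bp (chr3:14192963-14205131), the peak of 6813 bp over the *LUG* gene (chr4:15706513-15713325) and a 45S rDNA peak of 6451 bp at the end of chromosome 2 (chr2:1096-7546). The 2 rDNA peaks contain the annotated rRNA genes AT3G41768 and AT3G41979 on chromosome 3 and AT2G01010 and AT2G01020 on chromosome 2. Both had the same fold (1.41) and the same -log10 q (7.36), and these values recurred exactly in 16 of the 169 sites, of which 10 were in the centromeric repeat, 4 in 45S rDNA and 2 in the 5S repeat. No LUG site with TPL had this pair of values. Equal values at sites on different chromosomes are a property of the deposited list, and how they arose was not tested.

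The rank of a site is its place among the 2721 LUG peaks of WT by -log10 q, and 8 sites were chosen by it. The first was the GAA site on chromosome 4 (chr4:3655415-3656074, 660 bp), with a fold of 4.53, a -log10 q of 45.5 and rank 22. The 2 other GAA sites ranked 212 (chr1:7024970-7025326, fold 2.92) and 256 (chr5:12710403-12710660, fold 3.12). The peak over the *LUG* gene ranked 37, with a fold of 3.98 and a -log10 q of 38.9. A site in the 5S repeat ranked 93 (chr5:12810899-12811155, fold 2.13). The centromeric sites among the 8 ranked 152 (chr4:3987373-3987659, fold 1.81), 213 (chr2:3718094-3718350, fold 1.79) and 308 (chr4:4001105-4001310, fold 1.69). Thus 7 of the 8 sites were in repeats, and the remaining one lay on the gene of the tagged protein.

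The centromeric sites lay in narrow parts of the chromosomes, within 0.404 Mb or less on each. Of the 84 centromeric sites, 35 were on chromosome 4 (within chr4:3950544-4011676), 31 on chromosome 5, 12 on chromosome 2, 4 on chromosome 3 and 2 on chromosome 1. All of them were at least 424057 bp from the nearest TPL peak of WT, with a median near 844800 bp. The reference holds 538856 bases of this repeat, of which LUG peaks covered 12.55% in *morchex* and 12.03% in WT, and TPL peaks covered 0.00928% in *morchex* and 0.00928% in WT. The 22 sites in the 5S repeat were on chromosomes 3 (12), 4 (5) and 5 (5), with a median distance near 549500 bp to TPL. Of the 269469 bases of this repeat in the reference, LUG peaks covered 5.41% in *morchex* and 5.33% in WT, and TPL peaks covered none in either genotype. Of the 34965 bases of 45S rDNA, LUG peaks covered 65.3% in *morchex* and 64.5% in WT, and TPL peaks covered 0.798% in *morchex* and 0.872% in WT. The rDNA and GAA sites were more scattered, since 1 rDNA site on chromosome 2 (chr2:7190950-7191458) lay 2788 bp from a TPL peak of WT and the GAA site on chromosome 1 lay 6377 bp from one.

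The single-copy sites were spread over all chromosomes, with 7, 9, 11, 15 and 11 sites on chromosomes 1 to 5. They were closer to TPL, with a median of 1682 bp to the nearest TPL peak of WT, and 22 of the 53 were within 1000 bp of one. The 3 nearest to TPL were 11 bp (chr2:14944539-14944784, fold 1.80), 28 bp (chr3:4235417-4235703, fold 1.69) and 94 bp (chr1:5131794-5132108, fold 1.84) from a TPL peak. On the other side of the rule, the 3 LUG sites with TPL that shared the fewest bases with it shared 27 (chr2:6667791-6667985, fold 1.94), 28 (chr1:4906474-4906750, fold 1.95) and 43 bases (chr4:11316588-11316780, fold 1.95). The folds of these 3 shared sites were above those of the 3 sites without TPL, and both are given as a description.

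**Figure D2:**
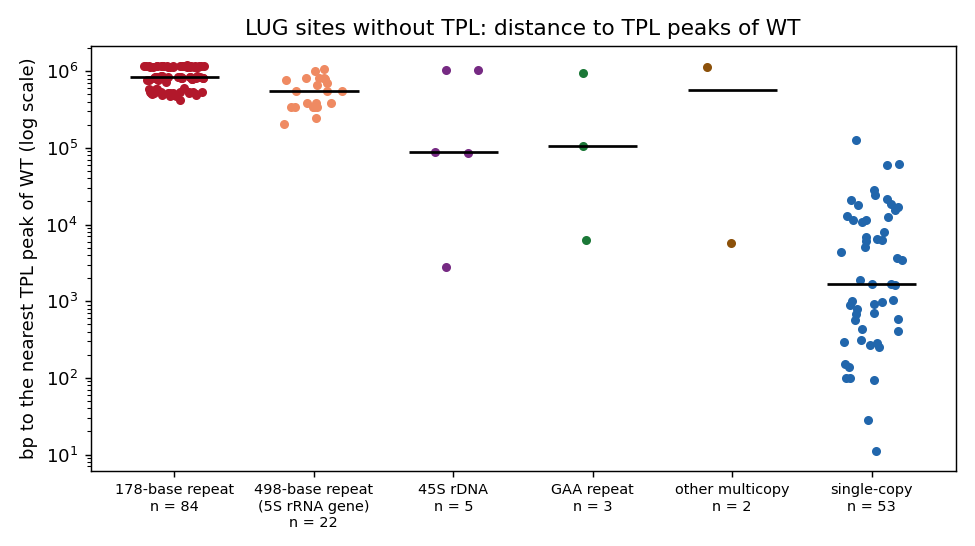
Distance in bp from each LUG site without TPL to the nearest TPL peak of WT (y axis, log scale), by sequence class (x axis), with 1 point for each site and a bar at the median. All of the centromeric sites are at least 424057 bp away, whereas the 53 single-copy sites run from 11 to 128220 bp with a median of 1682 bp.

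Summits, the base of highest signal in a peak, were in promoters for few of the sites in repeats. A promoter was taken as 1000 bp upstream to 200 bp downstream of a transcription start site, and 35 of the 169 sites without TPL had a promoter summit (20.7%, 14.9% to 27.6%), against 1063 of the 2552 sites with TPL (41.7%, 39.7% to 43.6%). Among the 53 single-copy sites 25 had a promoter summit (47.2%), and 10 of the 116 multicopy sites did. Of the 53 single-copy summits, 25 were intergenic, 13 in a UTR, 8 in a coding exon and 7 in an intron. Relative to the start site, the single-copy promoter summits lay at a median of -164 bp (quartiles -547 and 56.5), against -334 bp (quartiles -682 and -54) for those of the sites with TPL. Coding genes filled a median of 66.8% of the 100000 bp around the single-copy sites and 0% around the centromeric sites, against 64.0% around the sites with TPL.

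In *morchex*, LUG peaks again lay over most sites in the satellite, the 5S repeat and 45S rDNA, and TPL peaks over none of these. A site is called covered when a peak of the *morchex* list shares at least 1 base with it, and the *morchex* lists were not used to choose the sites. The sets were split by TPL in WT, however. A difference between them in cover by TPL in *morchex* therefore follows in part from the rule and is not an independent contrast. LUG peaks of *morchex* (5351 peaks) covered 137 of the 169 sites without TPL (81.1%, 74.3% to 86.7%), against 2418 of the 2552 sites with TPL (94.7%, 93.8% to 95.6%). TPL peaks of *morchex* (12224 peaks, against 10267 in WT) covered 38 of the 169 sites without TPL (22.5%, 16.4% to 29.5%), against 2550 of the 2552 sites with TPL (99.9%, 99.7% to 99.99%). Both lists covered 28 of the 169 sites, LUG alone 109, TPL alone 10, and neither 22.

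By class, LUG peaks of *morchex* covered 77 of the 84 centromeric sites (91.7%, 83.6% to 96.6%), 19 of the 22 sites in the 5S repeat (86.4%, 65.1% to 97.1%) and 5 of the 5 sites in 45S rDNA. TPL peaks of *morchex* covered 0 of the 84 centromeric sites (upper limit 4.30%), 0 of the 22 5S sites (15.4%) and 0 of the 5 rDNA sites (52.2%). These limits take the sites as independent, whereas sites of a repeat lie side by side and 1 *morchex* peak can cover several. The limits are therefore too narrow. Over the 77 covered centromeric sites, the covering LUG peak of *morchex* had a median fold of 1.64 and a median rank of 818 of 5351. A peak that covered several sites was counted for each of them. The 3 GAA sites, which were the 3 best-ranked sites with no LUG peak in *morchex*, were covered by neither list. The single-copy sites went another way. LUG peaks of *morchex* covered 35 of the 53 (66.0%) and TPL peaks of *morchex* covered 37 of the 53 (69.8%), with 27 covered by both, 10 by TPL alone, 8 by LUG alone and 8 by neither. Without the peak over the *LUG* fragment these shares were 65.4% and 69.2% of 52 sites.

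**Figure D3:**
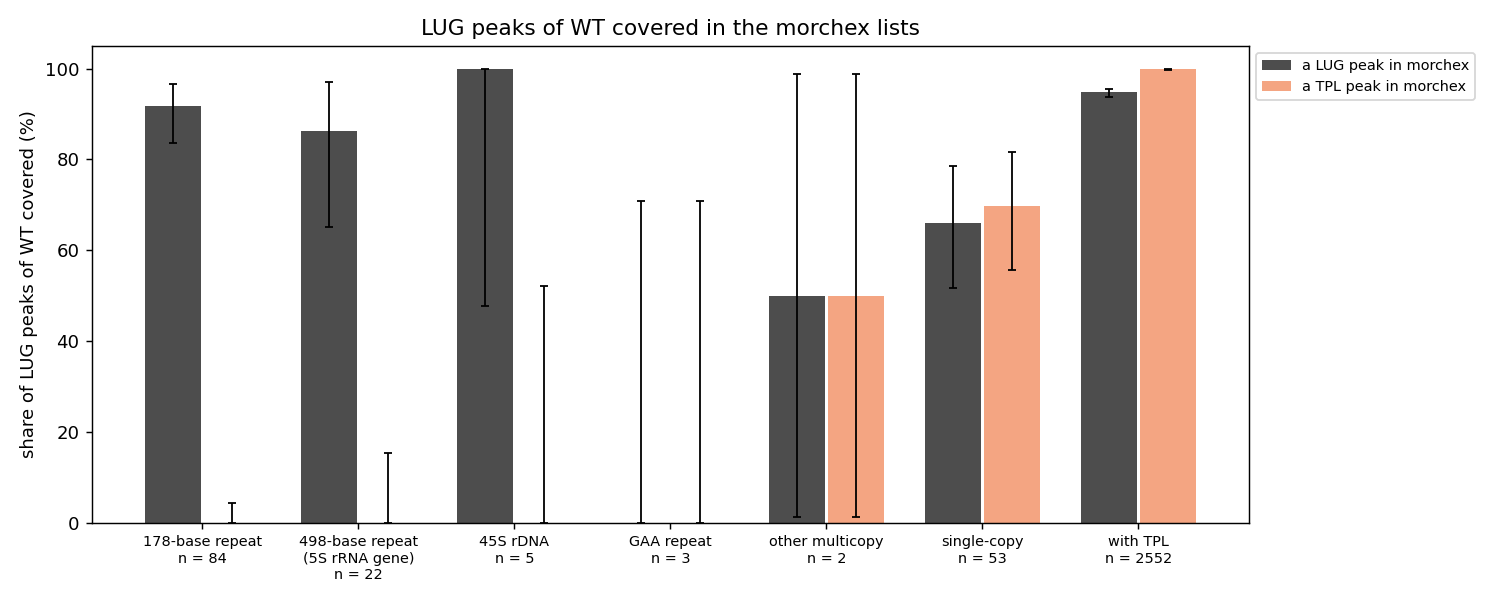
Share of LUG peaks of WT (y axis, %) that share at least 1 base with a LUG peak (dark bars) or a TPL peak (light bars) of *morchex*, for the classes of sites without TPL and for the sites with TPL (x axis), with exact 95% intervals as error bars. TPL covers none of the centromeric, 5S, 45S and GAA sites and 69.8% of the single-copy sites, against 99.9% of the sites with TPL. The sets were split by TPL in WT, so their TPL shares are not an independent contrast.

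The shares were also taken within 4 equal bins of -log10 q over all LUG peaks of WT. In the lowest bin, LUG peaks of *morchex* covered 55.6% of 27 single-copy sites without TPL and 87.4% of 636 sites with TPL, and TPL peaks covered 63.0% and 99.7%. In the next bin, LUG covered 70.0% of 20 single-copy sites without TPL and 94.4% of 641 sites with TPL, and TPL covered 80.0% of the 20 and all of the 641. The 2 upper bins held 5 and 1 of the single-copy sites without TPL. The TPL peaks of *morchex* over the single-copy sites were low in their own list, with a median fold of 2.14 and a median rank of 7654 of 12224, and the best of them ranked 2391.

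The same rule was applied within *morchex*, where 259 of the 5351 LUG peaks shared no base with a TPL peak of *morchex* (4.84%, 4.28% to 5.45%), against 169 of 2721 (6.21%) in WT. The repeat classes held 81 centromeric peaks in *morchex* and 84 in WT, 18 and 22 peaks in the 5S repeat, and 6 and 5 in 45S rDNA. Of these *morchex* peaks, 70 of the 81, 15 of the 18 and 5 of the 6 shared bases with a WT site of the rule. The single-copy class held 145 peaks in *morchex* and 53 in WT, and 8 of the 145 shared bases with a WT site of the rule. The *morchex* list held no GAA site.

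One single-copy site lay on the transgene's own sequence. The primers with which the study cloned *LUG* match the reference at chr4:15706486-15713356 (6871 bp), over *LUG* itself (AT4G32551, chr4:15707425-15713662, + strand), and the LUG peak of WT covered 99.2% of this fragment. The primers are printed because their sites bound the peak.
forward primer, chr4:15706486-15706513: gaattgactaattaaaaactcttgatag
reverse primer, chr4:15713330-15713356, - strand: cttccacagtttcactagcttatcatg

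The LUG peak of *morchex* covered 99.7% of the fragment, with a fold of 4.68 and rank 69. A TPL peak of *morchex* lay inside the fragment, with a width of 733 bp, a fold of 2.08 and rank 8810 (chr4:15707023-15707755). The primers listed for TPL match *TPR1* (AT1G80490), a close relative of *TPL*, at chr1:30261097-30268312 (7216 bp), and the highest-ranked peak of both TPL lists lay there, covering 96.9% of the fragment in *morchex* and 98.6% in WT. DNA of the transgene and binding at the endogenous gene cannot be told apart in these lists. Whether the tagged protein was TPL or TPR1 was not tested, and the name TPL is kept here as the labels give it.

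Short motifs were counted in windows of 300 bp around the summits of the 53 single-copy sites, on both strands, beside the 2552 sites with TPL and the promoters of 32834 genes (250 bp upstream to 50 bp downstream of the start). The G-box (CACGTG) was in 13.2% of the single-copy sites without TPL (5.48% to 25.3%) and in 21.0% of the sites with TPL, against 6.89% of promoters. The PBE-box (CACATG), which phytochrome interacting factors bind, was in 15.1% (6.75% to 27.6%) and 32.1%, against 12.7% of promoters. The telo-box (AAACCCT) was in 15.1% (6.75% to 27.6%) and 5.33%, against 10.0% of promoters, and the LEAFY core (CCANTG) was in 43.4% (29.8% to 57.7%) and 29.4%, against 26.0% of promoters. The heat shock element pair was in 18.9% (9.44% to 32.0%) and 9.17%, against 11.3% of promoters. These letters are matches in a window and not binding sites. In all 12 motifs were counted, and the other 7 were the GAGA repeat (GAGAGA), the site II element (TGGGCC), the auxin response element (TGTCTC), the W-box (TTGACC), the DRE (GCCGAC), a WUSCHEL-type motif (TTAATGG) and the CArG box, which were in 3.77% to 37.7% of the single-copy sites without TPL. Of these, GAGAGA was in 37.7% of the single-copy sites without TPL and 36.4% of the sites with TPL, TGTCTC in 22.6% and 25.5%, TTGACC in 17.0% and 11.4%, and TGGGCC in 15.1% and 9.21%, against 28.7%, 14.0%, 13.7% and 14.0% of promoters. TTAATGG was in 9.43% and 6.43%, GCCGAC in 5.66% and 4.39%, and the CArG box in 3.77% and 4.15%, against 7.49%, 3.40% and 2.80% of promoters.

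The genes with a promoter summit of a LUG site without TPL numbered 36, of which 27 were at single-copy sites, and none of the 36 also had a promoter summit of a site with TPL, beside 1132 (3.45%) of the 32835 genes of the reference that had one, so this count is near the background. They include *COR47*, a dehydrin gene induced by cold, *SAMDC*, which encodes an enzyme of polyamine synthesis, *MIR164a*, a microRNA gene that acts on *CUC* genes, *WRKY48* and *NAC062*, which encode transcription factors of stress responses, and *EXO*, which encodes a cell wall protein responsive to brassinosteroids. None of 77 listed genes, which include the floral organ identity genes, the corepressors and the MORC genes, was among the 36, which make up 0.110% of all genes, so a list of this size says nothing of them. In the RNA-seq libraries 8 of the 36 genes were at 0 TPM in all 22 libraries, 16 were under 1 TPM in all of them, and 6 exceeded 100 TPM in at least 1. AT4G06635, a pseudogene next to the top GAA site, was at 0 TPM throughout.

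The RNA libraries, with 8.61 to 25.1 M expected counts each, were checked against markers of the labelled floral tissue. The petal and stamen identity genes were close to absent, with *AP3* at no more than 0.65 TPM and *PI* at no more than 2.03 TPM, and *AP1* and *SEP2* did not exceed 0.1 and 0.15 TPM. Of 5 anther markers, 3 were at 0 TPM in all libraries and all 5 were under 1 TPM. *AG* had 0.71 to 3.77 TPM, *SEP1* 0.75 to 5.83 TPM and *SEP3* 2.08 to 90.8 TPM. Outside these markers, *LFY* did not exceed 0.09 TPM, and *CAL*, *UFO*, *CRC* and *INO* were at 0 TPM throughout, while *AP2* and *SEP4* reached 15.9 and 25.9 TPM. Most of these floral genes were thus near 0 TPM, although the labels call the tissue floral. Whether the RNA and the ChIP-seq came from like tissue was not tested. The summed level of the 7 floral organ markers was 32.6 to 99.3 TPM in *lug* and 9.69 to 32.8 TPM in Ler, and at T30 it was 10.8 to 15.6 TPM in *morchex* and 5.10 to 8.38 TPM in WT. In *lug* and Ler the difference lay in *SEP3*, with 29.4 to 90.8 TPM in *lug* and 6.02 to 24.7 TPM in Ler, while the other 6 markers summed to 3.22 to 8.51 TPM in *lug* and 3.67 to 8.13 TPM in Ler. The part of tissue make-up in the results on genes was not tested, and in such bulk samples fewer cells of a type and less RNA per cell cannot be told apart. The library totals also moved with genotype, with 19.6 to 24.9 M in *morchex* and 10.8 to 15.3 M in WT at T30. At T0 they were 12.75 to 17.9 M in *morchex* and 8.61 to 11.75 M in WT. At T48 they were 24.4 to 25.1 M in *morchex* and 9.46 to 11.7 M in WT.

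*LUG* transcripts were lower in *lug*. They had 7.47, 6.86 and 6.75 TPM in *lug*, against 19.8, 21.4 and 20.8 TPM in Ler, so the groups did not overlap. The change on the log2 scale was -1.40 (standard error 0.11, adjusted p = 0.00688, edgeR's quasi-likelihood test with Benjamini-Hochberg adjustment over all 17643 tested genes, as for the other adjusted values). The adjusted p was 0.069 without Ler replicate 1, 0.0567 without Ler replicate 3 and 0.268 with the replicate number as a block.

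Of the 36 genes, 17 passed the filter on low counts in *lug* and Ler, and the other 19 were too low to test. None of the 17 was called at an adjusted p under 0.05 and a fold change over 2, in either direction, beside 0.21% of all tested genes called up and 0.204% called down. By edgeR's unadjusted p under 0.05, 1 of the 17 was higher and 1 was lower, beside 3.96% and 3.37% of all tested genes, and DESeq2 called 1 up. Their median log2 fold change was -0.10, against 0.01 over all tested genes.

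*EXO* had the smallest p of these genes. It had 324, 406 and 234 TPM in *lug*, against 116, 213 and 141 TPM in Ler, and all *lug* libraries were above all Ler libraries. Its log2 fold change of 1.17 (standard error 0.25) did not pass the threshold in edgeR (adjusted p = 0.212), whereas DESeq2 gave an adjusted p of 0.00185, and over all alternatives the adjusted p ran from 0.00185 to 0.735. The LUG site in its promoter (chr4:5739978-5740242, fold 2.33) was covered by LUG and not by TPL in *morchex*, and 882 bp separated it from TPL in WT. At T0 *EXO* had 3.97, 8.76 and 3.06 TPM in *morchex*, against 3.01, 2.15 and 1.83 TPM in WT (log2 fold change 1.09, standard error 0.36, adjusted p = 0.503 by edgeR). Without *morchex* T0 replicate 2, the library that stands out, its log2 fold change was 0.57. The next 2 genes by p in *lug* were AT2G05810, with 2.90, 2.11 and 1.53 TPM in *lug* against 2.55, 4.72 and 3.86 TPM in Ler (log2 fold change -0.67, adjusted p = 0.649 by edgeR), and *IQD19*, which encodes a calmodulin-binding protein of the IQD family, with 3.45, 1.41 and 1.45 TPM in *lug* against 3.90, 4.37 and 4.05 TPM in Ler (log2 fold change -0.84, adjusted p = 0.691 by edgeR). The groups overlapped for AT2G05810 and did not for *IQD19*.

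In *morchex* against WT, 19 of the 36 genes were tested. At T0 none of the 19 was called, beside 0.244% of the 18827 tested genes called up and 0.0478% called down, and DESeq2 called none. By edgeR's unadjusted p under 0.05, 2 of the 19 were higher and 0 lower, beside 3.41% and 3.94% of all tested genes. The median log2 fold change of the 19 was 0.11, against -0.01 over all tested genes. Besides *EXO*, the genes of smallest p were AT2G05810, with 6.12, 4.52 and 3.02 TPM in *morchex* against 1.89, 2.41 and 4.00 TPM in WT (log2 fold change 0.67, adjusted p = 0.641 by edgeR), and AT1G77600, with 4.38, 4.61 and 4.71 TPM in *morchex* against 3.73, 3.78 and 4.43 TPM in WT (log2 fold change 0.21, adjusted p = 0.758 by edgeR). Their groups overlapped.

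At T30, 1 of the 19 genes was called up and 0 down, beside 0.467% of all tested genes called up and 0.122% called down. The gene was AT3G62630, which had the summit of a single-copy site (chr3:23165904-23166165, fold 2.00) at -599 bp from its start site, a site that both LUG and TPL covered in *morchex*. It had 7.38 and 5.08 TPM in *morchex*, against 3.81, 2.18 and 2.18 TPM in WT, with no overlap (log2 fold change 1.02, standard error 0.21, adjusted p = 0.026 by edgeR). The call was lost when T0 and T48 were left out of the model (adjusted p = 0.209), without WT T30 replicate 2 (0.0987) or 3 (0.057), without *morchex* T30 replicate 1 (0.216), and with the replicate number as a block, where the log2 fold change was 0.99. Before heat it had 17.2, 20.5 and 18.9 TPM in *morchex*, against 17.0, 17.3 and 17.7 TPM in WT, and these groups overlapped. By edgeR's unadjusted p under 0.05 at T30, 3 of the 19 were higher and 0 lower, beside 9.90% and 10.9% of all tested genes. The median log2 fold change of the 19 at T30 was 0.16, against 0.01 over all tested genes. The difference between the genotype effects at T30 and at T0 passed an adjusted p of 0.05 for 1 of the 18827 tested genes and for 0 of the 19 (edgeR's interaction test).

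**Figure D4:**
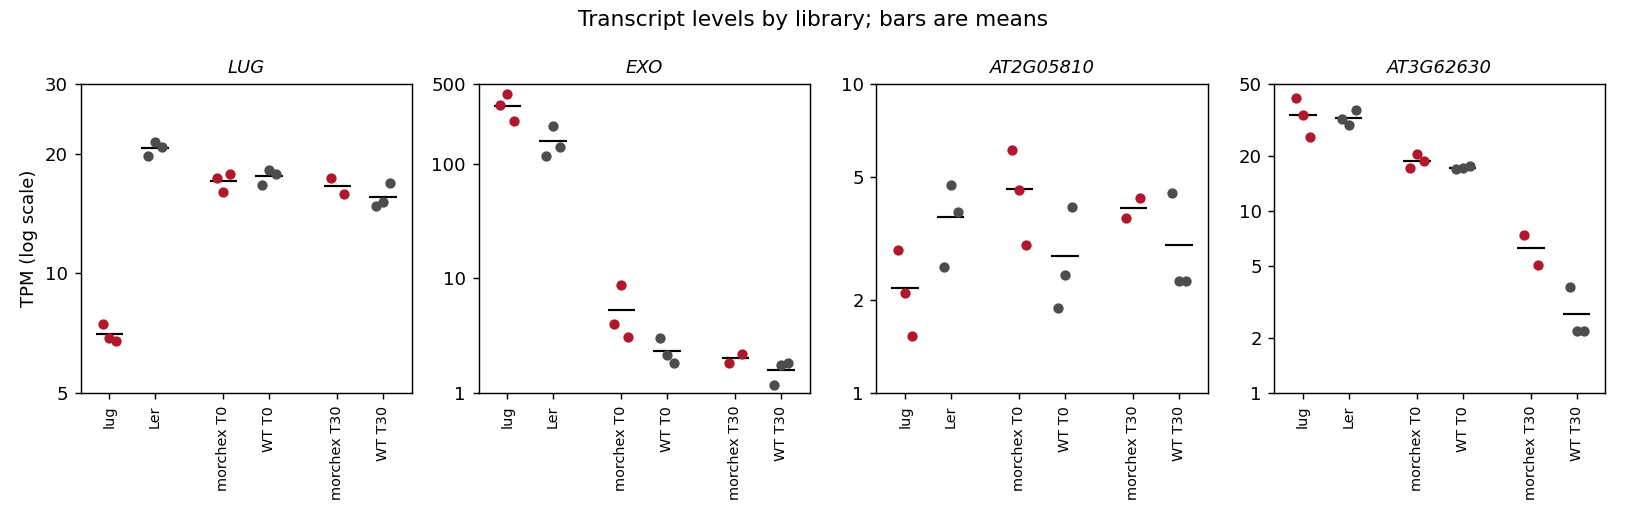
TPM (y axes, log scale) of *LUG* and of 3 genes with a promoter summit of a LUG site without TPL, in *lug* and Ler and in *morchex* and WT at T0 and T30 (x axes), with 1 point for each library and a bar at the mean of the group. *LUG* is at 6.75 to 7.47 TPM in *lug* and at 19.8 to 21.4 TPM in Ler, and *EXO* is at 234 to 406 TPM in *lug* and at 116 to 213 TPM in Ler.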

How the data were processed

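The deposited peak lists of LUG and TPL (1 library each in *morchex* and WT) and the RNA-seq tables were used. The authors aligned ChIP reads to TAIR10 with Bowtie2 2.1.0, kept uniquely mapped reads, removed duplicates with SAMtools and called peaks with MACS2 2.1.1. The deposited lists give a fold enrichment (a ratio over local background), a -log10 p, a -log10 q and a score for each peak, of which fold and -log10 q were used. For RNA, the authors ran Bowtie2 and RSEM, which gave each gene, in the deposited tables, its expected count, its TPM and its FPKM (not used). Positions, sequences and copy numbers were read from RefSeq TAIR10.1, whose nuclear chromosomes are those of TAIR10. Peaks were intersected at 1 bp. The repeat units and the rDNA sequences were read from the sites without TPL. A repeat family was assigned when it filled at least 50% of a peak, and this limit and the 10% limit for multicopy sequence were set after the sequences were seen. Expected counts were rounded, filtered by group and tested with edgeR 4.0.16 (TMM, quasi-likelihood) in R 4.3.3, in 1 fit of *lug* and Ler and 1 fit of the 16 heat libraries. Replicates were samples labelled as such, and whether they came from separate plants is not given in the sources used here, so p-values measure the spread between these samples.

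The sites named were the 8 highest by -log10 q, the 3 widest, the 3 nearest to TPL with the 3 shared sites of fewest shared bases, the 3 highest without LUG in *morchex*, and those on the cloned fragment. The genes named were those at the 8 sites, those called in a contrast (otherwise the 3 of smallest p), those in the gene lists, and LUG. The genes given as examples of the 36, the 3 promoter sequences and the motifs singled out were chosen after their values were seen. The members and the lists were chosen with earlier results of these data known. The scripts were tested on simulated data. Alternatives were DESeq2 1.42.0, no filter, unadjusted p, a replicate block, only the groups compared, each library left out, and other peak thresholds, overlaps and windows. Analyses without multicopy peaks and without the *LUG* fragment were added after seeing the data. Sequences of other single-copy sites are not reported here.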

Additional observations from a re-analysis of the deposited data

How the results depend on the processing

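The number of LUG sites without TPL depended on the lists. It was 767 with only TPL peaks of -log10 q of at least 10, 697 with as many TPL peaks as LUG peaks, 2407 with a 50% reciprocal overlap, 27 with only LUG peaks of -log10 q of at least 10 and 53 without multicopy peaks (added after seeing the data), against 169. In the same order, TPL in *morchex* covered 82.7%, 80.9%, 94.5%, 7.41% and 69.8%, promoter summits made up 38.6%, 38.9%, 40.6%, 14.8% and 47.2%, and the median fold was 2.01, 1.99, 2.17, 1.69 and 1.98. LUG in *morchex* covered 94.0% with the reciprocal overlap and 66.0% without multicopy peaks. The median width was 265 bp with the LUG threshold and 253 bp without multicopy peaks, and a promoter window of 3000 bp gave 44.97%. Extending TPL peaks by 200 bp or leaving out the *LUG* fragment moved none of these values beyond its interval.

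All genes called up and down in *lug* numbered 37 and 36, against 211 and 236 by unadjusted p, 116 and 107 by DESeq2, 0 and 0 with the replicate block, and 5 to 79 and 2 to 66 with 1 library left out. At T0 they numbered 46 and 9, against 148 and 134 by unadjusted p, and 33 to 42 and 5 to 10 with 1 library left out. At T30 they numbered 88 and 23, against 352 and 179 by unadjusted p, 31 and 6 with a model of T30 alone, 42 down with the block, 59 down by DESeq2, and 36 to 112 and 5 to 126 with 1 library left out. In the main edgeR fits, genes at LUG sites without TPL were 17 of 17643 tested in *lug* and 19 of 18827 in *morchex*. Of genes at these sites, 1 was called up in *lug* by unadjusted p and by DESeq2, and 1 at T0 by unadjusted p. At T30, 3 were called up by unadjusted p, 0 with the block, with a model of T30 alone or with the LUG threshold, and 0 to 1 with 1 library left out. The causes were not tested. Deviations from the group mean in same-numbered libraries correlated at -0.25, -0.01 and -0.51 in *lug* and Ler. The values were 0.12, -0.24 and -0.11 at T0, and 0.18 and 0 at T30. With so few libraries in a group, such correlations cannot show whether the numbers pair the samples. Peak shares rest on 1 library each, and depth of the ChIP libraries is not given in the lists.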

Other observations

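Of the 17 runs of at least 20 GAA repeats in the reference, 3 lay in LUG peaks of WT, and these were the longest 3, with at least 74 repeats each. LUG peaks of *morchex* covered 0 of the 17 runs, and TPL peaks covered 1 in *morchex* and 2 in WT. In *morchex*, 14 LUG peaks shared 1 pair of values (fold 1.64, -log10 q 15.9), and they covered 21 of the LUG sites without TPL.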
